A study of Mus musculus with 12 samples.

Results

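Tecta, Tectb, Otog, Otogl, Otoa and Ceacam16 encode non-collagen proteins of the tectorial membrane, the extracellular gel that lies over the hair cells of the cochlea. Emilin2, which encodes a glycoprotein of the extracellular matrix, was grouped with them, and its place in this gel was not tested. The 7 genes were taken by symbol from the 27755 rows of a table of normalized counts, and all 7 were among the 18400 genes tested. RNA had been sequenced from the cochlear sensory epithelium of single neonatal mice of mixed C57BL/6 and CD1 strain, with 2 ears of 1 pup in each library. Treated pups were Sox2-CreER/+; β-catenin-flox(Exon3)/+, in which tamoxifen lets Cre remove exon 3 of Ctnnb1 and leaves a stabilized β-catenin. Untreated pups were littermates with the β-catenin-flox(Exon3)/+ allele and no Cre. Tamoxifen was injected into the mothers (100 μl at 50 μg/μl), and pups of both genotypes were exposed through the milk.

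The name of a group gives the day of tamoxifen, and tissue was collected 72 h later. P1 libraries therefore held cochleae of postnatal day 4, and P4 libraries held cochleae of postnatal day 7. Each group has 3 libraries in the table, except P4 treated, which has 2 (replicates 1 and 3, with replicate 2 not analysed here). Cre acts only in cells that express Sox2, so cells without it keep an intact allele in treated pups.

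The tectorial membrane is secreted by the epithelium during development and carries sound-driven motion to the hair bundles. Collagen fibrils run through a striated-sheet matrix built from α-tectorin (Tecta) and β-tectorin (Tectb), and CEACAM16 joins that matrix later. Otogelin (Otog) and otogelin-like (Otogl) are large mucin-like glycoproteins, otoancorin (Otoa) attaches the gel to the spiral limbus, and EMILIN2 (Emilin2) is an EMI-domain glycoprotein of the extracellular matrix. Tecta, Tectb, Otog, Otogl and Otoa are also used in the gels of the vestibular organs.

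Between untreated ages 3 of the 7 members were called, against 19.9% of all genes tested. Tecta was 1.97-fold lower and Tectb 1.87-fold higher in P4 untreated than in P1 untreated libraries, and Ceacam16 went from 0 or 1 normalized count to between 66 and 176. Ceacam16 was high enough to be tested only through its P4 libraries, so its call is not support for a tendency of the members. Otog stayed between 17315 and 23179 normalized counts in all 11 libraries. Between treated and untreated libraries 0 of 7 members were called, against 0.353% of all genes at P1 and 0.0543% at P4.

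The genes are spread over 5 chromosomes of mm10 (GENCODE M21). Tecta lies on the minus strand at chr9:42329619-42399929 with 24 exons in its longest coding transcript, and Tectb on the plus strand at chr19:55180733-55196313 with 11. Otog (plus strand, chr7:46240987-46311434, 56 exons), Otoa (plus strand, chr7:121081650-121163097, 29 exons) and Ceacam16 (minus strand, chr7:19852097-19861299, 6 exons) share a chromosome. Otogl is on the minus strand at chr10:107760531-107912134 with 58 exons, and Emilin2 on the minus strand at chr17:71252172-71311978 with 8.

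The promoters of both tectorin genes are shown because these genes moved in opposite directions with age. Each is the 250 bases before a RefSeq start on the strand of the gene (GRCm38.p6, the same assembly as mm10). Of the 2 starts that RefSeq gives for Tecta, the one nearest the GENCODE start was used. Capitals mark a GATA core (AGATAA or its reverse complement TTATCT) and a TATA-like run (TATAAA or TATATA).
Tectb, chr19:55180476-55180725, plus strand: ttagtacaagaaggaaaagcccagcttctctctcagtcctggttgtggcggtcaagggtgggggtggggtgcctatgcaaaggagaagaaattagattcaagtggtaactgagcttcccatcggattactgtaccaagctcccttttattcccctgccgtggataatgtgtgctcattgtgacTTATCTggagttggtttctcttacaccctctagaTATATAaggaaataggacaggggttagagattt
Tecta, chr9:42399948-42400197, minus strand: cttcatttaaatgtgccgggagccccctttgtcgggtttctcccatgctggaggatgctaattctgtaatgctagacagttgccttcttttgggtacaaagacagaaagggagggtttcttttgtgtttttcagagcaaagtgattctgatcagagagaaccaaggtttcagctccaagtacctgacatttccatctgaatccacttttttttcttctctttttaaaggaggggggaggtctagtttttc

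Promoter entries from RefSeq matched 5 of the 7 members (Tecta, Tectb, Otog, Otoa and Emilin2). A TCF/LEF core (CTTTGAT), a SOX core (CTTTGTT) and the GATA core were sought on both strands, from 250 bases before to 50 bases after the start. The GATA core of Tectb, 67 bases before the start, was the only match in these 5 genes. It is found in 11.2% of all 32851 promoters, against 3.73% for the TCF/LEF core and 5.85% for the SOX core. The TATA-like run, sought after the sequences had been seen and only on the gene strand before the start, begins 33 bases before the start of Tectb. It was absent from the other 4 members and present in 11.5% of all promoters. The 250 bases hold 3 CpG in Tectb, 3 in Otoa, 0 in Otog, 2 and 5 at the starts of Tecta and 6 and 15 at those of Emilin2, against a median of 6 over all promoters.

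Both tectorins were among the most abundant transcripts of the epithelium. By the mean over the 11 libraries, Tectb ranked 2 and Tecta ranked 4 of all genes, and together they took between 1.78% and 2.55% of each library. Otoa ranked 104, Otog 225, Emilin2 517, Otogl 1341 and Ceacam16 15044. Ranks by count favor long transcripts, so the levels of different genes are compared below only per length. Ratios of genes within a library are not divided by length and are compared only between libraries.

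Per kb of the longest coding transcript, Tectb had the highest level in every group. In P4 untreated libraries the level was 527230 ± 73425 normalized counts per kb (SD, n = 3) for Tectb and 27687 ± 6615 for Tecta. Otoa followed at 8330 ± 2901 normalized counts per kb and Ceacam16 was last at 68.7 ± 34.9. The ranges of Otog (1831 to 1901 normalized counts per kb) and Emilin2 (1857 to 14246) overlapped in these libraries, so their order was not resolved. In P1 untreated libraries the ranges of Otog (1724 to 1933) and Emilin2 (1166 to 2733) overlapped too. Per kb of all annotated exons, the level of Tectb in P4 untreated libraries was 186187 ± 25930 (SD, n = 3) and still the highest.

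**Figure D1:**
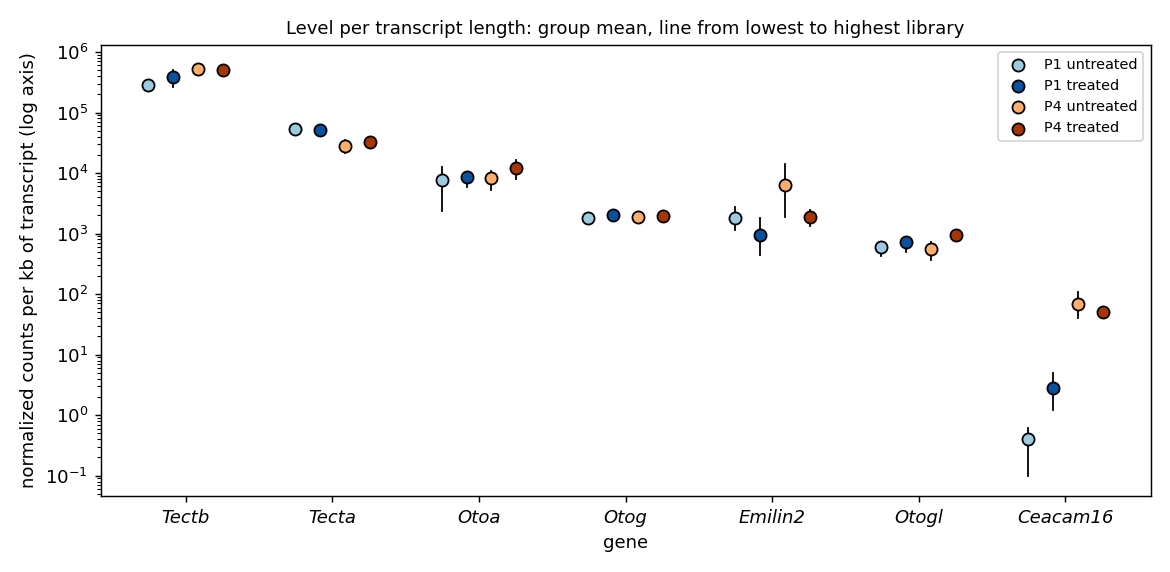
Normalized counts per kb of the longest coding transcript (log axis) for the 7 genes, with points for group means and lines from the lowest to the highest library (a library at 0 is drawn at the foot of its line). Tectb lies above Tecta in every group, and Ceacam16 is the lowest gene in every group.

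The libraries carried the markers of the labelled tissue, with other cell types at varying levels. Each library summed to between 41.2 and 44.2 M normalized counts. Summed supporting cell markers (12 genes) ranged from 97274 to 183496 normalized counts and hair cell markers (12 genes) from 32409 to 66951. Mesenchyme markers (10 genes) remained, at 133133 to 215419 normalized counts. Markers of otoconia and of the roof epithelium (Oc90, Otol1, Otop1 and Otx2) ranged from 1429 to 189715, and Oc90 alone reached 187387 in a P1 untreated library. The high sums were at P1, with up to 189715 in untreated and 132465 in treated libraries. At P4 the highest sums were 10911 in untreated and 3900 in treated libraries. Xist was between 2794 and 4180 normalized counts in 2 P1 untreated and both P4 treated libraries and at 39 or below in the other 7, so sex was not balanced between groups. Ctnnb1 was at 24107 to 25048 normalized counts in P1 treated and at 19820 to 25308 in P1 untreated libraries, and counts per gene do not show the loss of exon 3. Sox2 was at 4930 to 6006 in P1 treated and at 8042 to 10170 in P1 untreated libraries. Its log2 fold change was −0.67 (adjusted p = 0.0300, limma). At P4 it was at 7577 to 7993 in treated and at 10101 to 10485 in untreated libraries and was not called. The authors name low Sox2 in knock-in mice such as Sox2-CreER as a limit. Effects of the Cre allele and of stabilized β-catenin cannot be told apart here.

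The first question was how the genes differed between ages without Cre. Here 3 of the 7 members were called (adjusted p under 0.05 and an absolute log2 fold change over 0.32, limma), against 19.9% of all genes tested. Tecta was lower at P4, and Tectb and Ceacam16 were higher. Ceacam16 passed the minimum mean of 10 only through the P4 libraries, so its call is not support for a tendency of the members. In bulk RNA, fewer cells of a type and less RNA per cell cannot be told apart.

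Tecta encodes α-tectorin, a large zona pellucida domain glycoprotein of the striated sheet. Its normalized counts were 389117, 416809 and 374737 in P1 untreated libraries and 253951, 157230 and 198329 in P4 untreated libraries. The highest P4 library lay well below the lowest P1 library, with means of 393554 ± 21384 and 203170 ± 48542 (SD, n = 3 each). The log2 fold change of P1 against P4 was 0.98 (standard error 0.148, adjusted p = 0.00160, limma), with a 95% interval from 0.65 to 1.31.

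Treated libraries showed the same order for Tecta. Normalized counts were 375530, 402278 and 372453 in P1 treated libraries and 244981 and 229209 in P4 treated libraries. No library of one age reached the level of the other. P1 minus P4 was 0.69 on the log2 scale (standard error 0.165, adjusted p = 0.0251, limma). All treated P1 libraries had low Xist and both treated P4 libraries had high Xist, so age and sex cannot be told apart among treated pups. The call was lost with Xist in the model (log2 fold change 0.71, adjusted p = 0.328) and without P1 treated replicate 1, P4 treated replicate 1 or P4 treated replicate 3 (adjusted p = 0.0523, 0.107 and 0.165). With the otoconia and roof epithelium markers in the model the value was 0.68 (adjusted p = 0.0657). In order of level, P1 untreated was followed by P1 treated, P4 treated and P4 untreated, and groups of the same age overlapped.

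Tectb encodes β-tectorin, the partner of α-tectorin in the striated sheet. It was at 410255, 354031 and 372145 normalized counts in P1 untreated libraries and at 817204, 620983 and 695512 in P4 untreated libraries. All P4 libraries were above all P1 libraries, with means of 711233 ± 99051 and 378810 ± 28699 (SD, n = 3 each). The log2 fold change of P1 against P4 was −0.90 (standard error 0.205, adjusted p = 0.0119, limma), and with Xist in the model it was −0.85 and no longer called (adjusted p = 0.0850).

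In treated pups the P1 libraries of Tectb were spread widely, at 501350, 352987 and 681629 normalized counts. The P4 treated libraries were at 725262 and 659004. The highest P1 treated library (replicate 3) lay between these P4 libraries, so the groups overlapped. P1 minus P4 was −0.48 on the log2 scale (standard error 0.230, adjusted p = 0.203, limma) and was not called, although without P1 treated replicate 3 it was called at −0.72 (adjusted p = 0.0441). P1 untreated had the lowest level, P1 treated was next, and both P4 groups were highest and overlapped each other.

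The balance of the tectorins was followed as the ratio of Tecta to Tectb within each library, which a scaling between libraries leaves as it is. Counts were not divided by length, so equal counts are not equal levels. Per kb of transcript, P1 untreated libraries had means of 280808 for Tectb and 53632 for Tecta. The ratio of counts was 0.948, 1.18 and 1.01 in P1 untreated libraries and 0.749, 1.14 and 0.546 in P1 treated libraries. At P4 it was 0.311, 0.253 and 0.285 in untreated libraries and 0.338 and 0.348 in treated libraries. Every P1 library was above every P4 library. On the log2 scale the mean difference between ages was 1.53, or 2.89-fold (exact two-sided permutation test within treatment, p = 0.01, adjusted p = 0.03 over 6 ratio tests). These tests include the age test of Otoa to Ceacam16, which is only a description (below) and lowers this adjusted p. The adjusted p of Tecta to Tectb was under the threshold of 0.05 only with that test included, so it is not taken as support for the age difference. The difference between treated and untreated was −0.07 (exact permutation p = 0.735, adjusted p = 0.735), an average of −0.42 at P1 and 0.28 at P4. At P4 both treated libraries were above all 3 untreated ones, and the difference at either age alone was not tested. The smallest p that the 200 arrangements allow is 0.005.

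**Figure D2:**
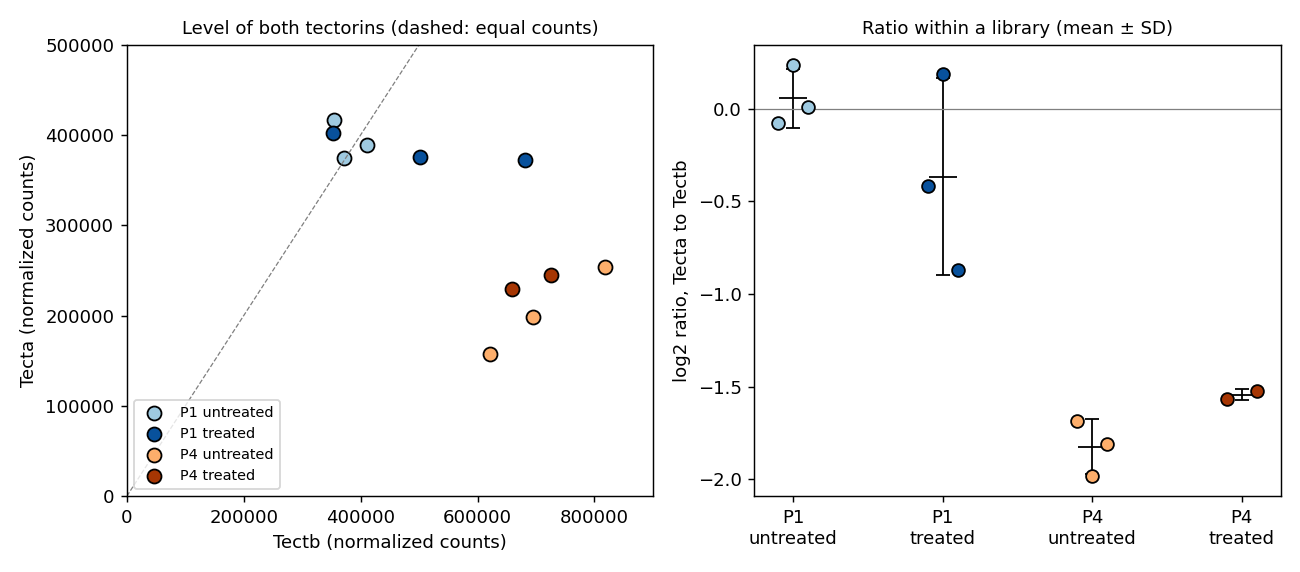
Left, normalized counts of Tecta against those of Tectb, 1 point per library, with a dashed line at equal counts (not divided by length). Right, log2 of the Tecta to Tectb ratio in each library with the group mean ± SD. P1 libraries lie on either side of the dashed line with ratios from 0.546 to 1.18, and all P4 libraries have ratios from 0.253 to 0.348.

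Ceacam16 encodes a secreted member of the carcinoembryonic antigen family that belongs to the mature striated sheet. Its normalized counts were 1, 0 and 1 in P1 untreated libraries and 66, 95 and 176 in P4 untreated libraries. In treated pups they were 8, 2 and 4 at P1 and 74 and 90 at P4. Every P4 library was far above every P1 library, while the level at P4 was still the lowest of the 7 genes.

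With the values taken as counts, Ceacam16 was 168.5-fold higher in P4 untreated than in P1 untreated libraries (95% exact binomial interval 46.3 to 1397), from sums of 337 and 2. The interval covers counting error only. In treated libraries the ratio of means was 17.6 (95% exact binomial interval 10.2 to 32.9), from 164 in 2 libraries and 14 in 3. In the fit on log2(normalized count + 1), which understates changes of low genes, the difference of P1 from P4 was −6.04 in untreated libraries (standard error 0.544, adjusted p = 1.46e-04, limma) and −4.01 in treated libraries (standard error 0.608, adjusted p = 0.00430). With a pseudocount of 10 these values were −3.42 and −2.66. In treated libraries the call was lost with Xist in the model (−4.34, adjusted p = 0.154) and without P4 treated replicate 3 (adjusted p = 0.0503).

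Exons of Ceacam16 share 380 bp with Gm19345, a protein-coding gene on the opposite strand. The counting is not stated to use strand, so reads of that stretch cannot be assigned to one of the genes. Gm19345 was at 13, 15 and 27 normalized counts in P1 untreated libraries and at 288, 272 and 310 in P4 untreated libraries. In treated libraries it was at 26, 10 and 44 at P1 and at 213 and 282 at P4. Both genes were thus higher in every P4 than in every P1 library. The part of Gm19345 in the values of Ceacam16 was not tested.

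Otog encodes otogelin, a large glycoprotein with von Willebrand factor domains. It was at 19409, 18784 and 17315 normalized counts in P1 untreated libraries and at 19095, 18384 and 18616 in P4 untreated libraries. In treated libraries it was at 19083, 19309 and 23179 at P1 and at 19222 and 19435 at P4. P1 treated replicate 3 was the highest library, and the others lay close together. The log2 fold change of P1 against P4 was −0.02 in untreated libraries, with a 95% interval from −0.20 to 0.17, and 0.08 in treated libraries, from −0.12 to 0.28. The spread of Otog within groups was 0.097 on the log2 scale (pooled SD), and 11.6% of tested genes had a smaller one.

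Otogl encodes otogelin-like, the closest relative of otogelin. Normalized counts were 6139, 5637 and 3798 in P1 untreated libraries and 6402, 3250 and 5153 in P4 untreated libraries. These groups overlapped, and the log2 fold change of P1 against P4 was 0.10 (95% interval −0.52 to 0.72). In treated libraries Otogl was at 4380, 7176 and 7632 at P1 and at 7795 and 8718 at P4. The P4 treated libraries were the highest of the 11, and the difference of P1 from P4 among treated pups was −0.41 (95% interval −1.10 to 0.29, adjusted p = 0.437, limma).

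Otoa encodes otoancorin, the anchor of the gel on the surface of the limbal epithelium. It was at 31666, 8961 and 47125 normalized counts in P1 untreated and at 41547, 19814 and 32927 in P4 untreated libraries. In treated libraries it was at 38320, 22319 and 35523 at P1 and at 30481 and 60930 at P4. Libraries of 1 group differed by up to 5.26-fold, and all groups overlapped. The log2 fold change of P1 against P4 was −0.34 (95% interval −1.55 to 0.87) in untreated and −0.47 (95% interval −1.82 to 0.89) in treated libraries. With a pooled SD of 0.809 on the log2 scale, 90.5% of tested genes varied less within groups.

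Otoa moved with some marker lists and against others. Pearson's r with the mean log2 level of the cartilage markers (3 of 6 genes that passed the minimum mean) was 0.69 over 11 libraries and 0.72 after group means were removed. For the endothelium markers (4 genes) these values were 0.58 and 0.73, and for the otoconia and roof epithelium markers (3 of 4 genes) they were 0.33 and 0.58. For neuron markers they were 0.18 and 0.47. In the other direction, they were −0.04 and −0.62 for hair cell markers and −0.03 and −0.53 for supporting cell markers. The libraries share normalization and depth, and the part of these cells in the level of Otoa was not tested.

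Emilin2 was the most variable member. It was at 4591, 10767 and 5998 normalized counts in P1 untreated and at 7314, 56115 and 12479 in P4 untreated libraries. In treated libraries it was at 7142, 2283 and 1757 at P1 and at 9782 and 5279 at P4. P4 untreated replicate 2 stood apart, at 31.9 times the lowest library. The log2 fold change of P1 against P4 was −1.37 (standard error 0.726, adjusted p = 0.206, limma) in untreated libraries and −0.52 (adjusted p = 0.585) without that library. In treated libraries it was −1.23 (adjusted p = 0.361). Over both treatments the difference between ages was −1.30 (adjusted p = 0.0949), and it was −0.88 without P4 untreated replicate 2.

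**Figure D3:**
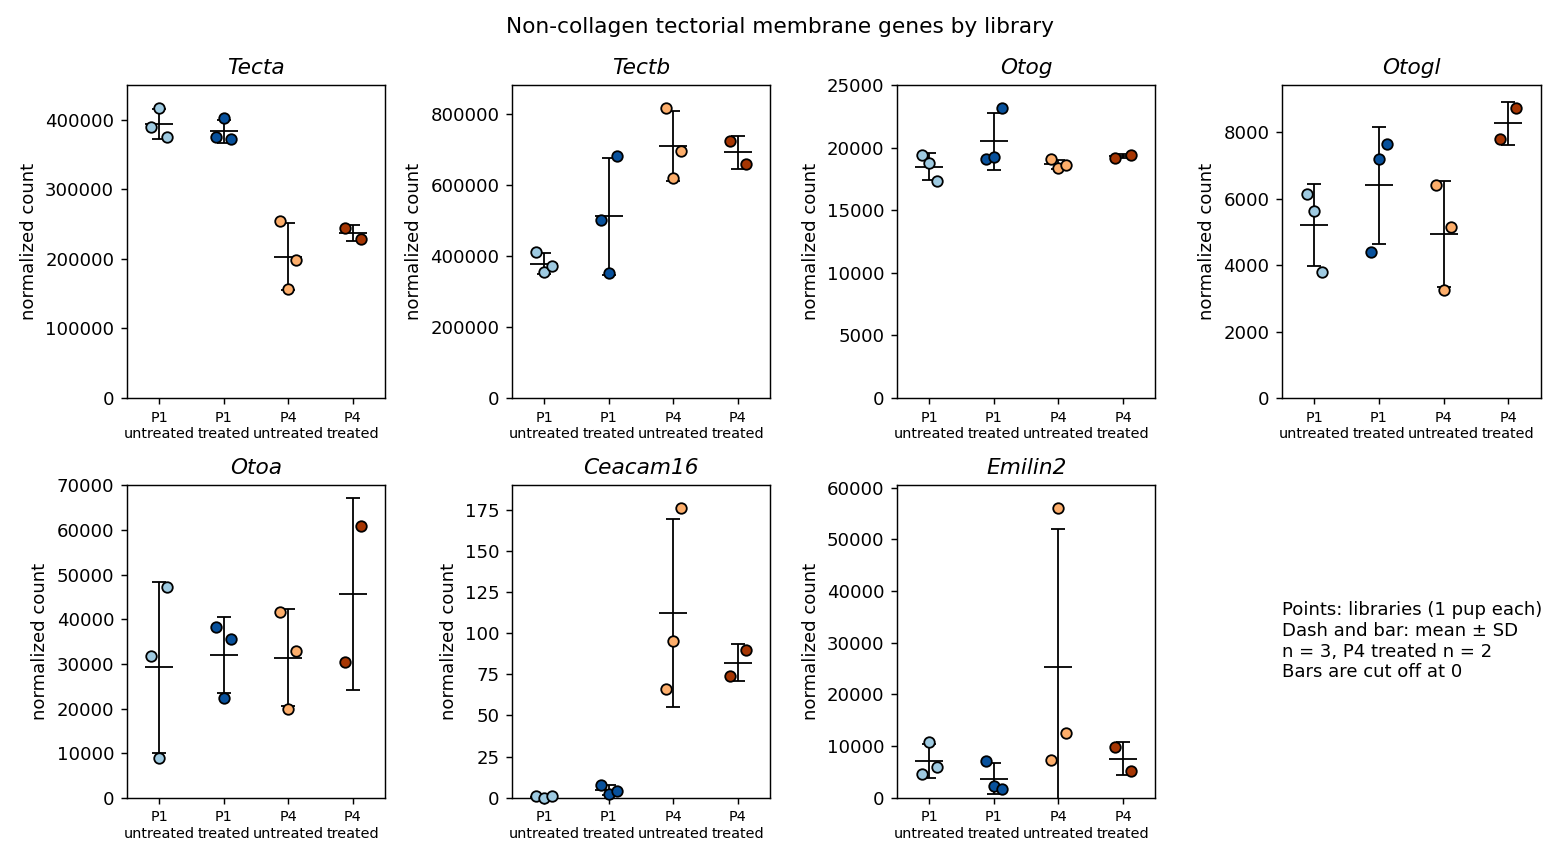
Normalized counts of each gene by group, with 1 point per library and the mean ± SD as dash and bar (n = 3, and n = 2 for P4 treated). Tecta is lower and Ceacam16 is higher in every P4 than in every P1 library. Tectb is higher at P4 in untreated libraries and overlaps between ages in treated ones. Otog is level in all groups, and 1 P4 untreated library of Emilin2 lies at 56115.

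Among treated libraries, 2 of the 7 members (Tecta and Ceacam16) were called between ages, against 11.1% of all genes. When treated and untreated pups were weighted equally, Tecta, Tectb and Ceacam16 were called between ages, 3 of 7 against 25.1% of all genes. Their log2 fold changes were 0.84 (adjusted p = 4.10e-04), −0.69 (adjusted p = 0.00697) and −5.02 (adjusted p = 3.27e-05, limma). Each of these averages was called in every alternative in which the gene could be fitted, including those with the Xist, mesenchyme or otoconia and roof epithelium markers in the model. Ceacam16 passed the minimum mean only through the P4 libraries, so its calls in both counts are not support for a tendency of the members. Apart from Ceacam16, the calls were Tecta among treated libraries, and Tecta and Tectb in the average. The call of Tecta among treated libraries was lost in several alternatives (above).

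The second question was whether these genes differed between treated pups, with Cre and stabilized β-catenin, and untreated pups without Cre. At P1, 0 of 7 members were called, against 0.353% of all genes. At P4, 0 of 7 were called, against 0.0543%. Over both ages 0 of 7 were called, against 0.674%. An unadjusted p under 0.05 was reached by 1 member at P1 (Ceacam16, against 12.2% of all genes), by 1 at P4 (Otogl, against 11.6%) and by 1 over both ages (Otogl, against 16.8%). These shares are near those of all genes. Both P4 treated libraries had high Xist and all 3 P4 untreated libraries low Xist, so treatment and sex cannot be told apart at P4. The interaction of treatment and age, which asks whether the response differed between ages, gave 0 of 7 members against 0% of all genes, with 1067 genes (5.8%) and among members only Ceacam16 at an unadjusted p under 0.05.

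For Tecta the 95% interval of the log2 fold change of treated against untreated was −0.36 to 0.29 at P1 and −0.12 to 0.62 at P4. For Tectb it was −0.07 to 0.84 and −0.54 to 0.48. For Otog it was −0.04 to 0.33 and −0.16 to 0.25, so changes over 1.5-fold lay outside the intervals of this gene. The intervals of Otoa, −0.81 to 1.60 at P1 and −0.83 to 1.87 at P4, leave larger changes possible in either direction.

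Otogl was higher in treated libraries on average. At P4 both treated libraries were above all 3 untreated ones, and the log2 fold change was 0.80 (standard error 0.312, adjusted p = 0.372, limma). Over the other settings and the omissions of a library this value ranged from 0.44 to 1.20. Otog was separated at P4 in the same way, with a log2 fold change of 0.05. At P1 the groups overlapped and the value was 0.29 (standard error 0.279, adjusted p = 0.769). Over both ages it was 0.54 (95% interval 0.08 to 1.01, unadjusted p = 0.0264, adjusted p = 0.229). Within libraries the ratio of Otog to Otogl differed by −0.45 on the log2 scale (exact permutation p = 0.09, adjusted p = 0.18). Supporting cell markers moved with Otogl, with r = 0.75 over 11 libraries and 0.79 within groups. Their sum was 181502 to 183496 normalized counts in P4 treated and 135628 to 155496 in P4 untreated libraries. At P4, 9 of these 12 genes had a higher mean in treated libraries, with Gjb2, Jag1 and Lgr5 adding most to the sum, and Sox2, Lfng and Hes5 had a lower one. At P1, 4 of the 12 were called for treatment (Lgr5, Gjb2 and Gjb6 higher, Sox2 lower), against 0.353% of all genes. The sum therefore cannot separate the number of supporting cells from a response of these genes. Mesenchyme markers moved against Otogl (r = −0.74, and −0.60 within groups), and with their level in the model the value over both ages was 0.21 (adjusted p = 0.865). The median log2 fold change of the mesenchyme markers with treatment was −0.76 at P1 and −0.77 at P4. This fit therefore cannot separate their level from treatment, and the part of either cell type in the level of Otogl was not tested.

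Ceacam16 was above 1 normalized count in every P1 treated library and at 0 or 1 in every P1 untreated library. The sums were 14 and 2, a ratio of 7.0 with a 95% exact binomial interval from 1.61 to 63.5 that covers counting error only. In the fit treated minus untreated was 1.69 on the log2 scale (standard error 0.544, adjusted p = 0.240, limma) and 0.44 with a pseudocount of 10. At P4 the groups overlapped, and the value was −0.34 (95% interval −1.69 to 1.01). The interaction was 2.03 (adjusted p = 0.820).

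Emilin2 was lower in treated libraries on average, with a log2 fold change of −1.12 at P1 and −1.26 at P4, and the groups overlapped at both ages. Over both ages the value was −1.19 (95% interval −2.40 to 0.01, adjusted p = 0.303, limma) and −0.77 without P4 untreated replicate 2. The medial ridge markers (6 genes) moved against Emilin2, with r = −0.80 over 11 libraries and −0.63 within groups. Their mean log2 level was 12.3 to 13.2 in P1 treated and 12.5 to 12.8 in P1 untreated libraries, and their part in the level of Emilin2 was not tested. Mesenchyme markers moved with Emilin2 (r = 0.42, and 0.48 within groups). Their median log2 fold change of treated against untreated was −0.76 at P1 and −0.77 at P4, with 6 and 9 of 10 genes at a lower mean and none of them called, while Lum, which carries much of the sum, was called higher at P1 (0.75, adjusted p = 0.0364, limma). With the mesenchyme level in the model the value of Emilin2 over both ages was −0.48 (adjusted p = 0.897). This fit cannot separate the mesenchyme level from treatment. Neuron markers (6 genes) and immune cell markers (6 genes) had lower means in P1 treated libraries in 6 of 6 cases each. None of those tested was called, and the share of all genes with a lower mean was not computed. Summed neuron markers overlapped, at 3432 to 4963 normalized counts in P1 treated and 3988 to 9695 in P1 untreated libraries. Summed immune cell markers were at 1182 to 2338 and 2568 to 3408.

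**Figure D4:**
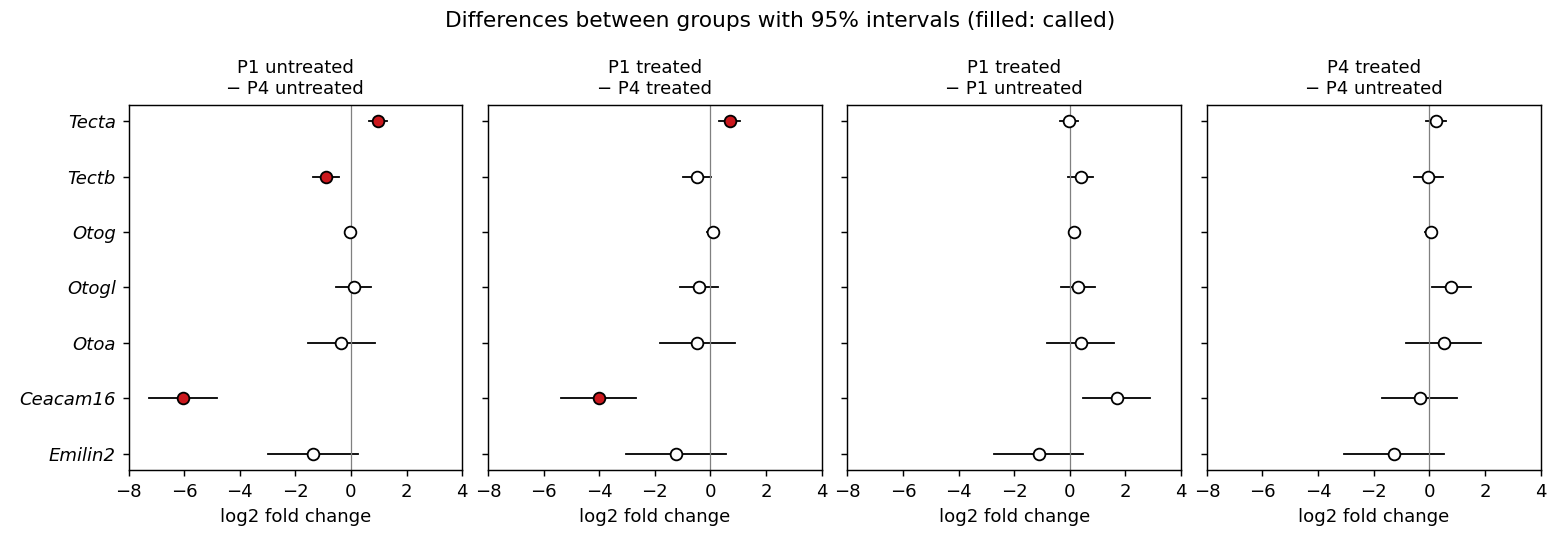
Log2 fold changes from limma with 95% intervals for the 7 genes in 4 comparisons, on log2(normalized count + 1). Filled points were called. Tecta, Tectb and Ceacam16 are filled between untreated ages, Tecta and Ceacam16 between treated ages, and no point is filled between treated and untreated.

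The ratio of Otoa to Ceacam16, the limbal anchor against a component of the striated sheet and taken with 1 added to each value, was 4.62 higher at P1 on the log2 scale. This is a description, because Ceacam16 passed the minimum mean only through the P4 libraries and Otoa itself was not called between ages. Treated and untreated differed by −0.22 (exact permutation p = 0.685). The ratio of Otog to Otogl differed by 0.19 between ages (exact permutation p = 0.44).

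Other genes of the same matrix were counted from a list of collagens and attachment proteins (10 genes, all tested). Between untreated ages 1 was higher at P1, 1 was lower and 8 were not called, near the 19.9% of all genes called, with a median log2 fold change of 0.19 against 0.02 over all genes. Col5a1, a fibril-forming collagen, fell from 4985 ± 469 normalized counts at P1 to 2187 ± 152 at P4 (SD, n = 3 in each group). Its log2 fold change of P1 against P4 was 1.19 (adjusted p = 2.66e-04, limma). Strc, which encodes stereocilin, the otoancorin relative that attaches outer hair cell bundles to the gel, rose from 1459 ± 739 to 2638 ± 234 (log2 fold change −0.97, adjusted p = 0.0394). Col5a1 also fell in treated libraries, from 3607 ± 422 (SD, n = 3) to 1994 ± 368 (SD, n = 2), with a log2 fold change of 0.86 (adjusted p = 0.00530). With both treatments weighted equally, Col5a2 and Col9a1 were called lower at P4 as well. None of the 10 was called for treatment or for the interaction.

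Relatives of the members by protein family were examined in the same way. Of 25 such genes 23 were in the table and 14 were tested, including Strc. Between untreated ages 4 of 14 were called, all higher at P4, against 19.9% of all genes, and the median of the 14 was −0.05. Emilin3, a relative of Emilin2, had the largest difference, from 635 ± 95.3 normalized counts at P1 to 5905 ± 1656 at P4 (SD, n = 3 in each group). On the log2 scale P1 minus P4 was −3.19 (adjusted p = 7.89e-05, limma). Vwf, which encodes von Willebrand factor, had a log2 fold change of −0.74 and Ceacam1 one of −0.70. In treated libraries Emilin3 alone was called, at −3.06, and no relative was called for treatment.

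**Figure D5:**
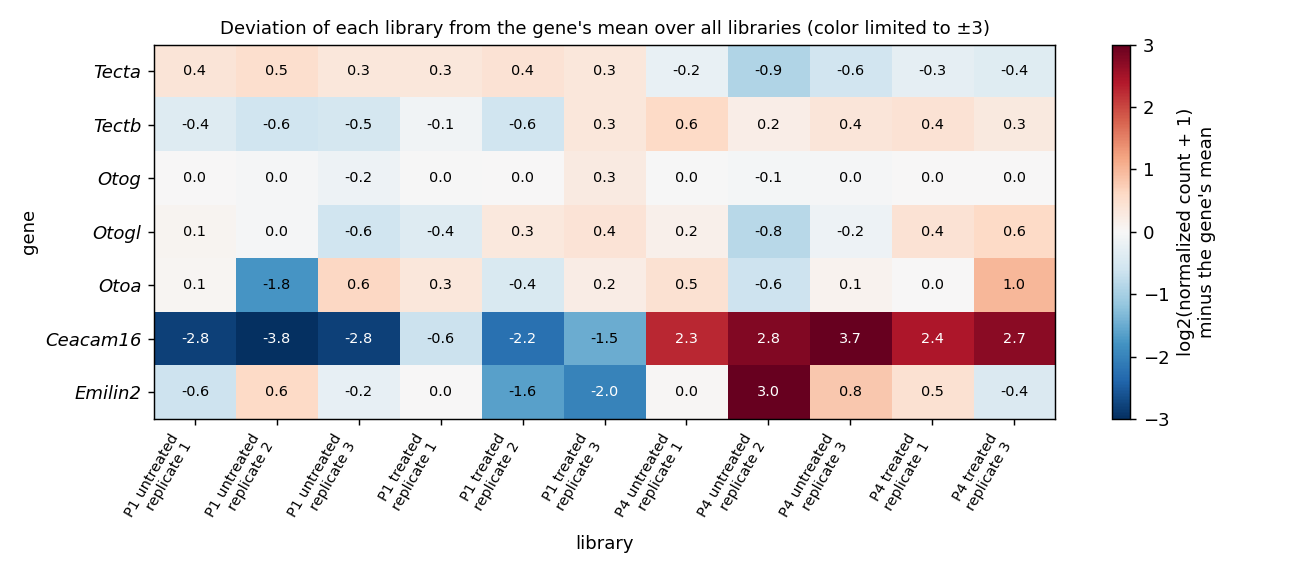
Log2(normalized count + 1) of each gene in each of the 11 libraries minus the mean of the gene, printed in each cell and shown in color limited to ±3. Tecta is positive in all P1 libraries, Ceacam16 is negative in all P1 and positive in all P4 libraries, and Otog deviates most in P1 treated replicate 3.

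Within the group of 7, Tecta and Tectb were opposed over the 11 libraries (Pearson's r = −0.71) but not within groups (r = 0.21 after group means were removed). Tectb moved with Otog within groups (r = 0.73) and Otogl against Emilin2 (r = −0.81). Single libraries weigh on both values. P1 treated replicate 3 was the highest P1 library of Tectb (681629) and of Otog (23179). P4 untreated replicate 2 was the highest of Emilin2 (56115) and the lowest of Otogl (3250). The values of r without these libraries were not computed. These values are descriptions, since all libraries share 1 normalization and group means differ.

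The genes with the most similar pattern were ranked by Pearson's r over the 11 libraries. For Tecta they were Thbs2 (r = 0.981), which encodes a secreted thrombospondin, Cckar (0.979), a cholecystokinin receptor, and Cdh4 (0.973), a cadherin. Thbs2 had means of 2594 and 898 normalized counts in P1 and P4 untreated libraries. For Tectb they were Chst9 (0.956), a sulfotransferase, Ash2l (0.954) and Flywch2 (0.95). For Ceacam16 they were Epb41l4a (0.982), Stat5a (0.980) and Gadd45a (0.980), and Stat5a, which encodes a transcription factor of cytokine signaling, rose from 833 to 2640 between untreated ages.

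For Otog the nearest genes were Trpm3 (r = 0.901), Tspan13 (0.897) and Gm14026 (0.886), and P1 treated replicate 3 was the highest library of all 3. For Otogl they were Uso1 (0.965), a factor of vesicle transport to the Golgi, Trp53bp1 (0.958) and Ltn1 (0.955). For Otoa they were Trdn (0.937), which encodes triadin, Il17re (0.932) and Wfikkn2 (0.922). For Emilin2 they were Gp1bb (0.938), a platelet glycoprotein gene at 391 normalized counts in P4 untreated replicate 2 and at 19 to 154 in the other libraries, Tpcn1 (0.932) and Fam104a (0.923).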

How the data were processed

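The authors deposited a score per gene, the count scaled by the size factor of its library and given as a whole number. Reads were aligned by the authors with STAR 2.5.2b to mm10, with featureCounts for quality checks, Sailfish and tximport for gene quantities and DESeq2 for their tests. It is not stated which of both kinds of count was deposited. As a scaled value is not a raw count, log2(normalized count + 1) was fitted in R 4.3.3 with limma 3.58.1 (4 group means, eBayes with trend, genes with a mean of at least 10, Benjamini-Hochberg adjustment over 18400 genes). The fit was tested on simulated data. The 27755 rows included 626 without a symbol and 1 repeated ID, which was dropped. Ratios within libraries were compared by exact permutation within strata (Python 3.11.15, numpy 2.4.6), and intervals for Ceacam16 were exact binomial. Each library came from its own pup. The members, lists and named genes were chosen with earlier results of these data known. Named were all members, called genes of the lists, and the 3 genes nearest to each member by r over 11 libraries. Residuals of libraries with the same replicate number correlated at 0.135, 0.136 and 0.115 in the comparison of untreated ages and at 0.026 or below otherwise, and a replicate block was tried. Covariates of Xist, of otoconia and roof epithelium markers and of mesenchyme markers, library weights, other scalings, filters and pseudocounts and the omission of each library were also tried; both marker covariates and the weights were added after seeing the data.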

Additional observations from a re-analysis of the deposited data

How the results depend on the processing

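The number of members called between P1 treated and P4 treated libraries, 2 of 7, was 1 at a minimum mean of 50, where Ceacam16 was not tested, 0 with the Xist covariate and 1 with the otoconia and roof epithelium covariate. When each library was left out in turn it ranged from 0 to 3, with 0 without P4 treated replicate 3. Where 1 P4 treated library remained, it was assumed to vary like the other groups. Between untreated ages the number was 3 in every omission. There, Tectb was not called with the Xist covariate (adjusted p = 0.0850, limma), and Ceacam16 was not tested at a minimum mean of 50. For treatment the number was 0 at P1 in every omission, and 0 at P4 where both P4 treated libraries remained. The log2 ratio of Tecta to Tectb between ages ranged from 1.39 to 1.66 over the omissions, and that of Otoa to Ceacam16 from 4.44 to 4.90. Without any 1 of the P1 treated libraries the adjusted p of both was 0.05. Groups within each treatment are then equal in size, so each arrangement has a mirror image of the same size, which raises the smallest two-sided p. Emilin2 over both treatments was called between ages without P1 treated replicate 1 (adjusted p = 0.0420), without P4 untreated replicate 1 (0.0435), with the mesenchyme covariate (0.0497) and at an adjusted p under 0.1. No member reversed in direction where it was called. The replicate block changed no call of a member; the member counts with the block were 3 between untreated ages and 2 between treated ages.

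Over all genes, counts of calls depended on the setting. They ranged from 7 to 371 for treatment at P1 (65 as reported), from 2 to 22 at P4 (10), from 17 to 635 over both ages (124) and from 0 to 14 for the interaction (0). Between ages they ranged from 1807 to 4757 in untreated libraries (3659), from 28 to 3050 in treated libraries (2034) and from 3542 to 5438 over both treatments (4621). Groups of 2 or 3 pups limit what can be seen of Otoa and Emilin2, and 0 to 8 normalized counts limit Ceacam16 at P1.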
